A study of Mus musculus with 48 samples.

Results

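The core circadian clock genes are the 10 genes Arntl, Clock, Npas2, Per2, Per3, Cry1, Cry2, Nr1d1, Nr1d2 and Dbp, chosen by symbol from the 48795 genes of the count table. All 10 passed the filter on low counts, which left 19714 genes. RNA was sequenced from the striatum, the forebrain nucleus most affected in Huntington's disease, of 48 C57BL/6 mice. There were 6 genotypes of 8 mice, 4 females and 4 males in each. They combined the presence or absence of the Q140 allele with 2, 1 or 0 intact Msh3 alleles. Without the allele the groups are WT (wild type) for intact Msh3, Msh3+/- with 1 copy lost and Msh3-/- with both lost. With it, in the same order, they are Q140 for intact Msh3, then Q140 x Msh3+/-, and last Q140 x Msh3-/-. Q140 mice model Huntington's disease through an expanded CAG repeat in the huntingtin gene. Msh3 encodes a mismatch repair protein known for its part in the somatic growth of such repeats, and the crosses ask what losing 1 or both Msh3 alleles does to the striatal transcriptome of Q140 mice. WT mice carry neither the Q140 allele nor a targeted Msh3 allele. All mice with the Q140 allele were heterozygous knock-ins per the labels, with 1 copy of it, and the labels tie neither allele to a promoter or cell type. The labels give an age of 12 months, whereas their extraction text gives 6 months for the dissection. The hour of dissection is likewise not given.

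The mammalian clock is a transcriptional feedback loop. The activator BMAL1, encoded by Arntl, pairs with CLOCK or with its forebrain relative NPAS2 and binds E-boxes in the promoters of Per, Cry, Nr1d1, Nr1d2 and Dbp. PER and CRY proteins then repress the activators, and the nuclear receptors REV-ERB alpha and REV-ERB beta, encoded by Nr1d1 and Nr1d2, repress Arntl and Npas2 through RRE elements. DBP, an output factor of the PAR bZIP family, binds D-boxes. Transcripts of the repressor and output arms cycle over the day in most tissues, roughly opposite to Arntl.

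Promoter sequences were searched for these elements. RefSeq start-site windows on build GRCm38.p6, of 250 bases before and 50 bases after each start, were matched by symbol for 9 of the 10 genes, all but Per2, with 12 windows in all. Both strands were searched for the E-box CACGTG, the D-box TTATGTAA and the RRE, the half-site GGTCA after a 5-base flank with A in its first 2 places and T in the fourth. None of the matches overlapped another. The same collection held 32851 windows of 27025 genes. Of these genes, 8.09% held the E-box, 1.11% the D-box and 0.714% the RRE. Among the 9 clock genes 1 held an E-box, 1 held D-boxes and 1 held an RRE. A share of 1 in 9 for the E-box is near that of all genes. The windows of Per3, Cry2, Nr1d1, Nr1d2 and Dbp held no such E-box, and sequence outside the windows was not searched. The 3 matches are shown because they give 1 example of each element, 5′ to 3′ on the gene's strand, with the element in capitals. The Cry1 stretch is the 250 bases before the start site at chr10:85185055-85185304 (minus strand), with the E-box beginning 60 bases before the start:

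Cry1: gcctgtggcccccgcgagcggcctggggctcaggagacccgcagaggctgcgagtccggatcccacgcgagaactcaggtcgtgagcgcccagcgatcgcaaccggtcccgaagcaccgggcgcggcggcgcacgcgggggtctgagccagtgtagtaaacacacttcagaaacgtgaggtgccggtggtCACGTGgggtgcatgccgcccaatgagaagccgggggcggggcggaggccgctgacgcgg

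The Per3 stretch is the 250 bases before the start site at chr4:151044666-151044915 (minus strand), with D-boxes beginning 205 and 158 bases before the start:

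Per3: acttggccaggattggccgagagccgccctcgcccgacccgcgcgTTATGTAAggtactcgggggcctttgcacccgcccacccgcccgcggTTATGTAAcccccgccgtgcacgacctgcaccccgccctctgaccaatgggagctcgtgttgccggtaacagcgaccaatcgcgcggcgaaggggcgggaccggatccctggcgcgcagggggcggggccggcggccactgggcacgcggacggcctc

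The Arntl stretch is 30 bases at chr7:113207528-113207557 (plus strand), with an RRE that begins at transcribed base 28 from one of its start sites:

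Arntl: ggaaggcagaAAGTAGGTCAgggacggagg

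A match is a description of letters, and no binding was measured here.

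Totals ranged from 38.9 M to 60.9 M counts per library with a median of 47.3 M, and no pair of libraries held identical counts. Levels below are CPM, counts relative to the library's total, scaled by TMM factors, which correct for library composition. Msh3 itself read 26.4 to 32.5 CPM in mice with both alleles intact, 68.4 to 81.5 in heterozygotes and 103 to 126 in homozygotes. The 3 Msh3 genotypes were therefore separate, but counts over the whole gene rose with loss of the allele and do not check loss of the protein. The labels do not say which part of Msh3 the allele lacks.

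By FPKM, Dbp and Nr1d1 were the most abundant clock transcripts in WT striatum and Arntl the least. The authors' FPKM scale divides by a length for each gene, so an order of genes depends on the lengths used. On this scale the mean level in WT was 59.7 ± 7.03 for Dbp and 53.4 ± 5.54 for Nr1d1 (SD, n = 8). Nr1d2 stood at 31.8 ± 2.20, Cry2 at 28.7 ± 1.95 and Npas2 at 20.2 ± 0.985. Per2 followed at 16.9 ± 3.87, Per3 at 10.6 ± 1.91, Clock at 9.15 ± 0.271, Cry1 at 8.86 ± 1.004 and Arntl at 5.18 ± 0.847. Neighbours in this order overlapped in their ranges over mice, except at 3 steps: Nr1d1 above Nr1d2, Cry2 above Npas2 and Cry1 above Arntl. By FPKM, Npas2 thus stood above its relative Clock, with ranges of 19.0 to 21.7 and 8.68 to 9.50. In CPM, which is not divided by length, the WT means ran the other way, at 129 for Clock and 99.0 for Npas2. Arntl, at a WT mean of 40.0 CPM, likewise stood above Cry1 at 27.3. The plot of levels per mouse shows all 10 genes in the 6 genotypes.

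**Figure D1:**
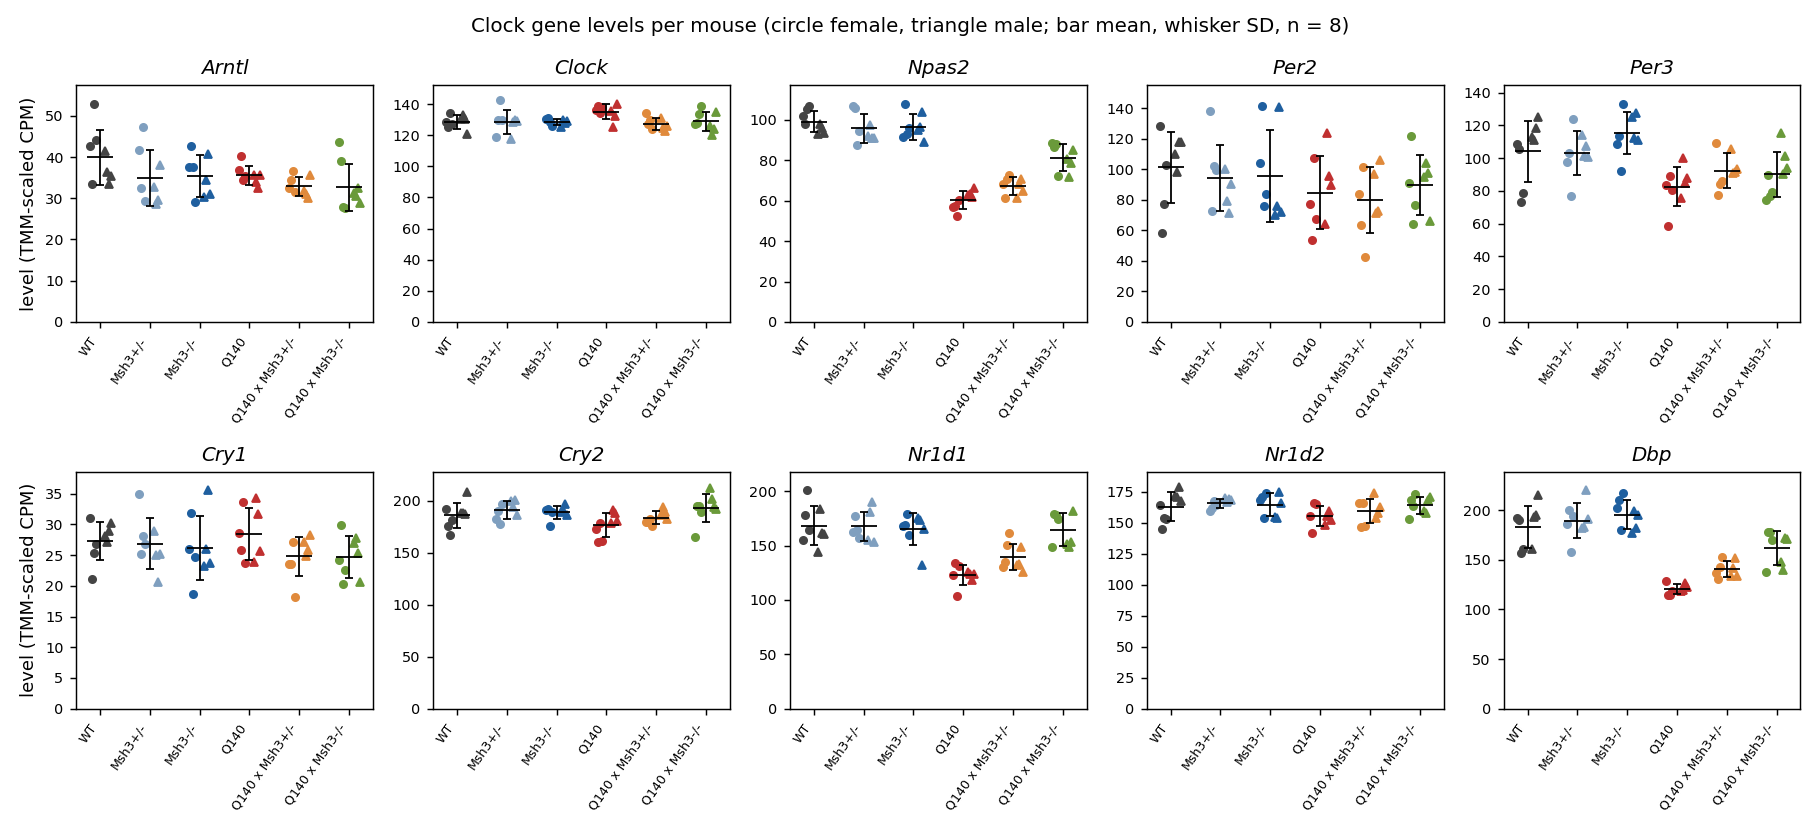
Level of each clock gene in each mouse (vertical axis, TMM-scaled CPM from 0) by genotype (horizontal axis). Circles are females, triangles are males, bars are means and whiskers the SD of 8 mice. Npas2, Nr1d1 and Dbp in Q140 mice lie below every WT mouse, and Per2 spreads from 42.6 to 142 CPM over all mice.

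Q140 mice had less Npas2, Dbp, Nr1d1 and Per3 RNA than WT mice, while the other 6 clock genes did not pass the test. Npas2, an activator subunit, fell by 39.2%, the largest of these differences, and Dbp, the output factor, fell by 34.1%. With loss of both Msh3 alleles, Npas2, Dbp, Nr1d1 and Cry2 were higher than in Q140 mice. These tests are edgeR's quasi-likelihood F-test with genotype and sex as terms, adjusted by Benjamini-Hochberg over all 19714 genes, and a gene passed at an adjusted p under 0.05. In Q140 minus WT, 4 of 10 clock genes passed, all lower, beside 33% of all genes that passed and 16% that passed lower. A share of 4 in 10 is near that background. The median log2 fold change of the 10 genes was -0.21, and that of all genes tested was -0.0041.

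Among the activators, Npas2 carried the genotype difference. Over the 8 mice of each group, its lowest, median and highest levels were 92.8, 98.0 and 107 CPM in WT, 52.6, 60.96 and 66.4 in Q140, 61.3, 68.3 and 72.8 in Q140 x Msh3+/-. They were 71.5, 82.8 and 88.6 in Q140 x Msh3-/-. Msh3+/- mice ranged from 87.4 to 107 and Msh3-/- mice from 88.9 to 108. No Q140 or Q140 x Msh3+/- mouse reached the lowest mouse without the Q140 allele. Q140 x Msh3-/- mice lay above every Q140 mouse and below every WT mouse. The log2 fold change in Q140 minus WT was -0.72 (SE 0.048, adjusted p = 1.37e-17, edgeR). In Q140 x Msh3-/- minus Q140 it was 0.43 (SE 0.048, adjusted p = 1.02e-09, edgeR).

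Clock, whose product shares the place of NPAS2 in the complex, held a narrow range of 118 to 142 CPM over all 48 mice. Its medians were 129 CPM in WT and 136 in Q140, and the groups overlapped. Q140 minus WT was 0.070 on the log2 scale (95% interval 0.011 to 0.13, adjusted p = 0.0621, edgeR). Scaled by library totals in place of TMM, the value was 0.14 with an adjusted p of 8.80e-05, and Q140 x Msh3-/- minus Q140 was -0.10 with an adjusted p of 0.00717, against -0.067 and 0.121 with TMM. Arntl, the shared partner, had medians from 30.9 CPM in Q140 x Msh3-/- to 38.9 in WT, with overlapping ranges in all 6 groups. Its Q140 minus WT value was -0.16 (95% interval -0.35 to 0.023, adjusted p = 0.18, edgeR).

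Among the PER and CRY repressors, Per3 was lower in Q140 mice. Per3 read 73.2, 110.1 and 125 CPM (lowest, median, highest) in WT and 58.7, 84.2 and 99.9 in Q140, and the ranges overlapped. The log2 fold change was -0.33 (SE 0.093, adjusted p = 0.00435, edgeR), and with the plate column of the library added as a term it was -0.25 with an adjusted p of 0.0514. Per2 had the widest spread of the 10 genes, with 58.5, 106 and 128 CPM in WT and 53.5, 83.4 and 124 in Q140. Its Q140 minus WT value of -0.26 had a 95% interval from -0.64 to 0.13, which does not reach the Npas2 value of -0.72 and does hold values as large as that of Dbp. Cry1 differed by 0.058 (95% interval -0.16 to 0.27) and Cry2 by -0.076 (95% interval -0.14 to -0.010, adjusted p = 0.0686, edgeR).

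Cry2 passed in Q140 x Msh3-/- minus Q140 at 0.13 (SE 0.033, adjusted p = 0.00343, edgeR). Its levels were 159.7, 178 and 191 CPM (lowest, median, highest) in Q140 and 165, 194 and 212 in Q140 x Msh3-/-, so the 2 ranges overlapped. Per2, Per3 and Cry1 did not pass this comparison, at 0.081, 0.12 and -0.20.

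The 2 nuclear receptors differed. Nr1d1 read 144, 163 and 201 CPM (lowest, median, highest) in WT, 104, 124 and 134 in Q140, and 149, 164 and 182 in Q140 x Msh3-/-. The Q140 mice lay below every mouse of the other 2 groups. Q140 minus WT was -0.45 (SE 0.062, adjusted p = 8.42e-08, edgeR) and Q140 x Msh3-/- minus Q140 was 0.42 (SE 0.062, adjusted p = 1.67e-06, edgeR). For Nr1d2 the medians were 166 CPM in WT, 155 in Q140 and 166 in Q140 x Msh3-/-, with overlapping ranges. Its Q140 minus WT value of -0.066 (95% interval -0.14 to 0.0091) did not pass. No test set Nr1d1 against Nr1d2, but their 95% intervals for Q140 minus WT, -0.58 to -0.33 and -0.14 to 0.0091, were apart.

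Dbp read 157, 191 and 215 CPM (lowest, median, highest) in WT and 114, 119 and 129 in Q140, with every Q140 mouse below every WT mouse. Q140 x Msh3+/- mice read 130.5, 139.5 and 152, while for Q140 x Msh3-/- the values were 138, 170.5 and 178. Both groups lay above every Q140 mouse, and the Q140 x Msh3+/- group lay below every WT mouse. Dbp changed by -0.60 in Q140 minus WT (SE 0.061, adjusted p = 3.89e-11, edgeR) and by 0.43 in Q140 x Msh3-/- minus Q140 (SE 0.061, adjusted p = 8.16e-07, edgeR).

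The ranges of Q140 and WT did not overlap for 3 of the 10 genes, Npas2, Nr1d1 and Dbp, beside 8.97% of all genes. The same 3 genes did not overlap between Q140 x Msh3-/- and Q140, beside 2.87% of all genes. In Q140 x Msh3-/- minus Q140, 4 of 10 clock genes passed, all higher, beside 16.3% of all genes that passed and 8.75% that passed higher. These 2 comparisons share the Q140 libraries, so opposite signs in them are not independent of each other. The medians of the 10 log2 fold changes and of all genes were 0.10 and 0.00036.

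With 1 Msh3 allele lost, no clock gene passed against Q140, beside 1.32% of all genes that passed. At an unadjusted p under 0.05 there were 4 of 10, beside 14% of all genes: Clock at -0.085, Npas2 at 0.16, Nr1d1 at 0.18 and Dbp at 0.22. Dbp stood just outside with an adjusted p of 0.0510, and its 2 ranges did not overlap, beside 0.218% of all genes. DESeq2 called 2 of the 10, Npas2 and Dbp, with adjusted p-values of 0.0448 and 0.0143. A fit with the plate column called 3, and leaving out any 1 library gave 0 to 2 calls, so this comparison lies at the threshold for Dbp and Npas2.

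The Q140 difference was also measured within each Msh3 genotype, each time against its own controls, so that these 3 comparisons share no library. Npas2 fell by 39.2% in mice with both Msh3 alleles, fell by 29.8% in heterozygotes and fell by 15.8% in homozygotes. Dbp changed by -34.1%, -25.8% and -17.1% in the same order. Nr1d1 changed by -26.9% and -16.8% in the first 2, and in the homozygotes the difference of -0.0058 on the log2 scale did not pass (95% interval -0.13 to 0.12). Per3 passed in mice with both alleles (-0.33) and in homozygotes (-0.36, adjusted p = 0.00979, edgeR), and not in heterozygotes (-0.16, adjusted p = 0.239, edgeR). In Q140 x Msh3+/- minus Msh3+/-, 3 of 10 passed, all lower, beside 21.5% of all genes and 10.8% lower. In Q140 x Msh3-/- minus Msh3-/-, 3 of 10 passed, all lower, beside 7.86% and 3.84%. The ranges did not overlap for 2 of 10 genes in the heterozygotes, Npas2 and Dbp, beside 4.6% of all genes, and for 1, Npas2, in the homozygotes, beside 1.09%. The plot of genotype differences sets these intervals side by side.

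**Figure D2:**
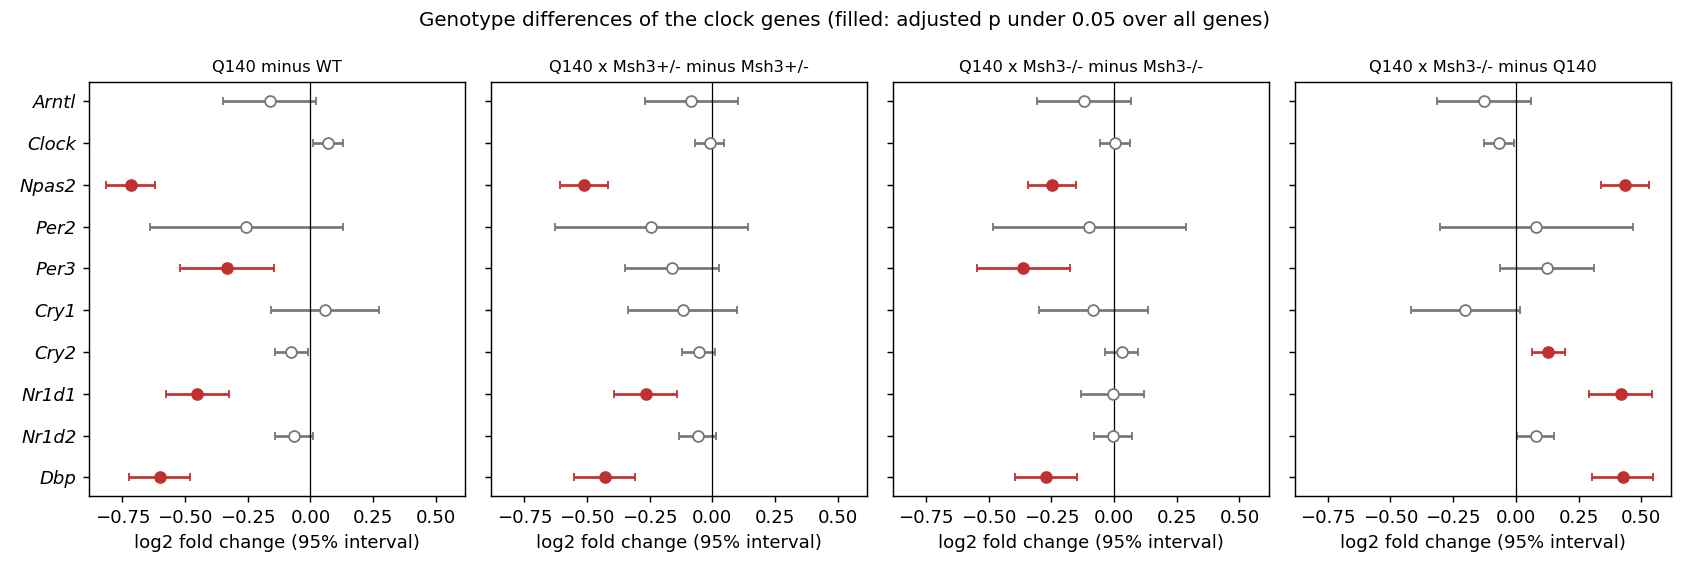
Log2 fold change of each clock gene (horizontal axis, with 95% intervals) in 4 comparisons. Filled points passed an adjusted p under 0.05 over all genes. Npas2 moves from -0.72 through -0.51 to -0.25 over the 3 Msh3 genotypes, and Nr1d1 from -0.45 to -0.0058.

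The change of the Q140 difference with Msh3 genotype was tested as an interaction. With both alleles lost, 3 of 10 clock genes passed, all with a positive value, beside 6.15% of all genes that passed and 4.09% that passed with a positive value. All 3 were lower in Q140 minus WT, so that a positive value is a smaller Q140 difference for them. They were Npas2 at 0.47 (95% interval 0.33 to 0.61, adjusted p = 2.47e-06), Nr1d1 at 0.45 (0.27 to 0.62, adjusted p = 0.000545) and Dbp at 0.33 (0.16 to 0.50, adjusted p = 0.0112), all by edgeR. The calls of Nr1d1 and Dbp did not hold with the name stem of the mice, described below, as a term in place of sex, at 0.21 (adjusted p = 0.238) and 0.29 (adjusted p = 0.112, edgeR). That of Dbp was also lost without the 5 libraries in which 4 markers of cortical neurons summed to over 25 CPM, at 0.27 (adjusted p = 0.101, edgeR). The Per3 interaction was -0.029 and did not pass (adjusted p = 0.94, edgeR). With 1 allele lost, no clock gene passed by edgeR, beside 0.0152% of all genes, and 2 of 10 had an unadjusted p under 0.05, beside 9.08%. Without the Q140 allele, no clock gene passed in Msh3+/- minus WT or in Msh3-/- minus WT by edgeR or by DESeq2, beside 0.0101% and 0.0457% of all genes by edgeR. At an unadjusted p under 0.05 there was 1 of 10 in the first, Arntl at -0.19, and 0 in the second, beside 4.75% and 6.02%.

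Other clock pathway genes moved in the same comparisons. All 18 on the list were tested. In Q140 minus WT, 12 of 18 passed, beside 33% of all genes: 3 were higher and 9 lower, with a median of -0.19. The lower ones were the period gene Per1 (-0.33), the PAR bZIP factors Tef (-0.32) and Hlf (-0.42), the E-box repressors Bhlhe40 (-0.36), Bhlhe41 (-0.26) and Ciart (-0.72), the receptor gene Rorb (-0.18), the F-box gene Fbxl21 (-0.50) and the deubiquitinase gene Usp2 (-0.29). The higher ones were Rora (0.10), which encodes an RRE activator, Arntl2 (0.46), a paralog of Arntl, and the kinase gene Csnk1d (0.15). In Q140 x Msh3-/- minus Q140, which shares the Q140 libraries, 10 of 18 passed, beside 16.3% of all genes, and 8 were higher: Per1 (0.33), Tef (0.29), Hlf (0.28), Bhlhe40 (0.37), Bhlhe41 (0.30), Ciart (0.56), Fbxl21 (0.33) and Usp2 (0.20). Arntl2 (-0.34) and Csnk1d (-0.11) were lower, and the median of the 18 was 0.14. The interaction with loss of both alleles passed for 3 of 18, beside 6.15% of all genes: Hlf (0.29), Bhlhe40 (0.45) and Arntl2 (-0.58).

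Striatal cell type markers moved too. All 8 markers of spiny projection neurons, the main striatal neuron, were detected, and their summed level was 8792 to 9746 CPM in WT, 4810 to 5396 in Q140 and, among Q140 x Msh3+/- mice, 5352 to 6434. It was 6162 to 8094 in Q140 x Msh3-/-. Of the 8, 7 were lower and 1 higher in Q140 minus WT (median -0.75), and 7 were higher in Q140 x Msh3-/- minus Q140 (median 0.43). The part of this shift in the clock gene differences was not tested. In bulk tissue, fewer cells of a type and less RNA per cell cannot be told apart. Astrocyte markers summed to 4195 to 4638 CPM in WT and 3640 to 3935 in Q140 (4 of 6 lower), and endothelial and mural markers to 241 to 298 and 201 to 222 (5 of 5 lower). Of the oligodendrocyte markers 3 of 5 were lower, of the microglial markers 4 of 6, of the interneuron markers 2 of 5 and of the oligodendrocyte precursor markers 1 of 2. The 4 cortical projection neuron markers had summed medians of 8.68 to 17.3 CPM in the 6 genotypes, but single libraries stood higher. The highest read 20.6 CPM in WT, 15.6 in Q140, 21.8 in Q140 x Msh3+/-, 47.7 in Msh3-/-, 78.2 in Msh3+/- and 79.6 in Q140 x Msh3-/-. Of the 4, 1 passed in Q140 x Msh3-/- minus Q140, Neurod6 at 1.88, and their median there was 1.28. Above 25 CPM lay 5 libraries, 3 of Q140 x Msh3-/- and 1 each of Msh3+/- and Msh3-/-. Without these 5, a limit set after the sums were seen, the clock genes that passed were again 4 in Q140 minus WT, 4 in Q140 x Msh3-/- minus Q140 and 3 in Q140 x Msh3+/- minus Msh3+/-. In Q140 x Msh3-/- minus Msh3-/- they were 2, with Per3 lost at -0.36 (adjusted p = 0.0646, edgeR), and in the interaction with loss of both alleles 2. The 4 hypothalamic and thalamic genes summed to at most 14.9 CPM in any library. Of the 4 choroid plexus and ependymal genes 1 was higher and 1 lower. No marker was at 0 in every library of a group.

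Parts of 4 clock genes overlap a gene on the other strand in GENCODE M21 (GRCm38). The largest overlaps were 539 exonic bases of Dbp with Sphk2, 18% of its exonic bases, and 263 of Nr1d1 with Thra, 8.55%. Cry2 shares 295 bases (4.67%) with D930015M05Rik and Arntl 33 (0.439%) with Gm45355. The kit kept strand per the labels, but the sources used here do not say whether counting used it. Thra, which encodes a thyroid hormone receptor, passed neither test, at -0.021 in Q140 minus WT and 0.041 in Q140 x Msh3-/- minus Q140. Sphk2, a sphingosine kinase gene, moved opposite to Dbp, at 0.28 and -0.19, and passed both.

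Sex differences were small. Males had more Per3 and Cry2 than females, 2 of 10 genes beside 4.26% of all genes that passed and 1.65% that were higher in males. Per3 read 58.7, 87.4 and 133 CPM (lowest, median, highest) in 24 females and 75.9, 103 and 127 in 24 males, a log2 difference of 0.18 (SE 0.053, adjusted p = 0.0381, edgeR). This call was lost in 17 of the 48 fits that left out 1 library, with adjusted p-values up to 0.0619, and with the plate column as a term (adjusted p = 0.0593) or without the 5 libraries of high cortical marker level (adjusted p = 0.0771). Cry2 read 159.7, 180.5 and 197 CPM in females and 179, 190.2 and 212 in males, a difference of 0.085 (SE 0.019, adjusted p = 0.00442, edgeR) that no left-out library undid. Leaving out 1 library does not remove a name stem, the shared part of mouse names described below. Of the 12 shared stems only 1 held both sexes, and mice of 1 stem were alike in Cry2 and Per3. The p-values of both sex differences can therefore be too small. No clock gene differed between the sexes in its Q140 difference by edgeR, as for 0% of all genes. At an unadjusted p under 0.05 there were 2 of 10, Npas2 and Nr1d2, beside 3.34%.

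Clock genes also varied among mice of the same genotype and sex. Residuals were taken as the log2 CPM of each mouse minus the mean of its genotype and sex. The SD of these residuals was 0.39 for Per2, larger than that of 98.4% of the 13833 genes whose log2 CPM averaged 1 or more. It was 0.22 for Cry1, 0.20 for Arntl and 0.19 for Per3, above 89.5%, 85.4% and 83.6% of genes. Clock varied least at 0.058, above 6.18% of genes, followed by Cry2 at 0.066 and Nr1d2 at 0.071.

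Per2 and Cry1 varied together from mouse to mouse. Pearson's r over 48 mice was 0.92 and Spearman's rho 0.92, and r without the 2 mice farthest from the median of Per2 was 0.90. The permutation p was 1e-05, the smallest that 100000 shuffles can give, with an adjusted p of 0.00045 over 45 pairs. Within single genotypes of 8 mice r ranged from 0.84 to 0.98. Each was also the closest gene of all 13833 to the other. Of the 270 relations within genotypes, 4 passed after adjustment by the exact permutation test over 40320 orders: Per2 with Cry1 in WT, Msh3+/- and Q140 x Msh3-/-, and Per2 with Per3 in Q140 (r = 0.90).

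Of the 45 pairs, 14 (31.1%) passed by the permutation test, 10 positive and 4 negative, with the weakest at an absolute r of 0.41. Among all pairs of the 13833 genes, 6.43% reached that absolute r, which describes the same mice and is not a test. Nr1d1 went opposite to Per2 (r = -0.63, rho = -0.65, adjusted p = 0.00045) and to Cry1 (r = -0.58, rho = -0.61, adjusted p = 0.00169). Per3 went with Cry2 (r = 0.60, rho = 0.61, adjusted p = 0.00165) and Per2 with Nr1d2 (r = 0.56, rho = 0.53, adjusted p = 0.00594). Arntl went opposite to Dbp (r = -0.53, rho = -0.47, adjusted p = 0.0173) and to Per3 (r = -0.44, rho = -0.37, adjusted p = 0.0198). But Arntl went with Per2 (r = 0.45, rho = 0.45, adjusted p = 0.0174) and with Cry1 (r = 0.43, rho = 0.42, adjusted p = 0.0303), by the same permutation test. Within single genotypes r ranged from -0.77 to 0.80 for Arntl and Per2, and from -0.54 to 0.58 for Arntl and Cry1. For Per2 and Nr1d2 it ranged from -0.43 to 0.84, and 4 of the 6 genotypes had the sign found over all mice. Without the 2 mice farthest from the median of the first gene, r was -0.52 for Per2 and Nr1d1, -0.50 for Cry1 and Nr1d1, 0.55 for Per3 and Cry2, 0.46 for Per2 and Nr1d2, and -0.38 and -0.35 for Arntl with Dbp and Per3. The last 2 relations no longer passed without those mice. Without the 5 libraries of high cortical marker level, 9 pairs passed, and Per2 with Cry1 had r = 0.91. Of the 14 pairs, 7 had the same sign in all 6 genotypes. Npas2 passed with no other clock gene, and Arntl and Nr1d1 had r = -0.24.

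**Figure D3:**
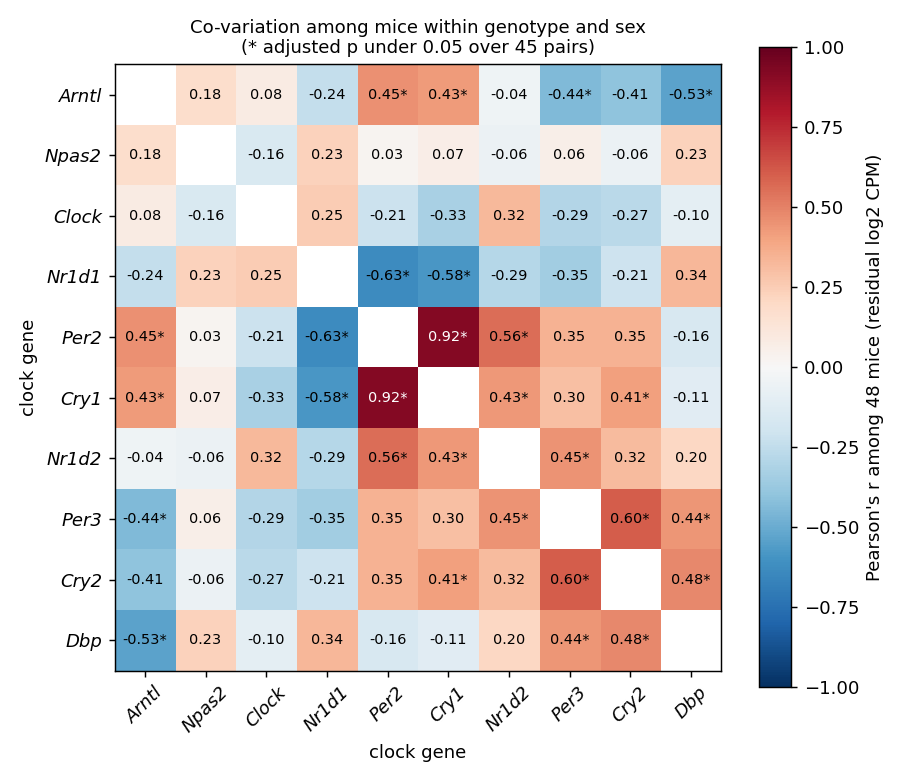
Pearson's r between each 2 clock genes over 48 mice, from residual log2 CPM within genotype and sex, with red for positive and blue for negative values. Asterisks mark the 14 of 45 pairs that passed. Per2 with Cry1 stands highest at 0.92 and Per2 with Nr1d1 lowest at -0.63.

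**Figure D4:**
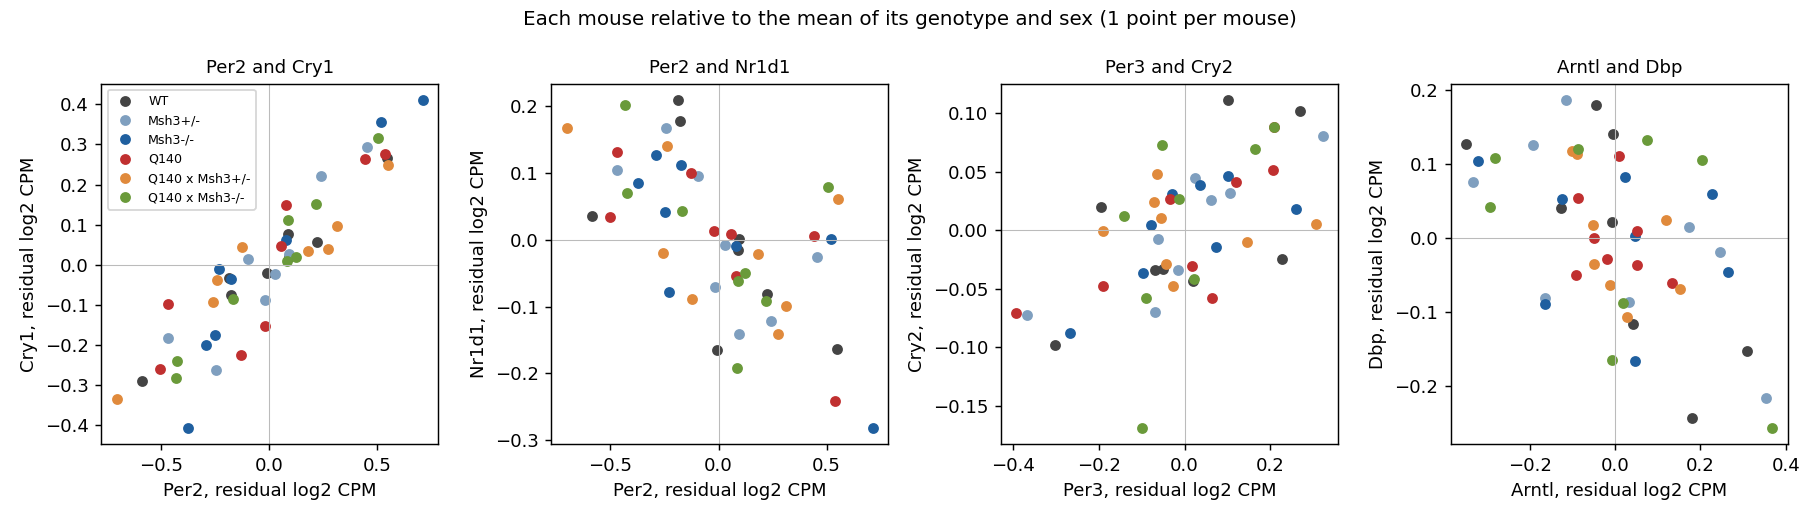
Residual log2 CPM of 4 pairs of clock genes, with 1 point per mouse coloured by genotype. Mice of all 6 genotypes lie along 1 line for Per2 and Cry1, and the other 3 pairs scatter more widely.

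Mice that share the first part of their name were alike in several clock genes. The part of each mouse's name before its final number, called a name stem here, was shared by 33 of the 48 mice in 12 stems. The labels do not say what a stem stands for. Each of the 12 held several genotypes, and 1 held both sexes, so that stem and sex largely cannot be told apart. The intraclass correlation of the residuals by stem, the share of variance between stems, was 0.62 for Per2, higher than for 99.7% of genes, and 0.58 for Cry1 (99.1%). It was 0.47 for Arntl, 0.43 for Cry2, 0.41 for Per3, 0.41 for Nr1d2 and 0.40 for Dbp, and 0.022 for Clock, -0.062 for Nr1d1 and -0.066 for Npas2. The median of all genes was 0.11. Npas2 and Nr1d1 instead had the highest values by plate column of the library, 0.28 (above 98.6% of genes) and 0.21 (95.7%). The genotypes were not spread evenly over these columns: Q140 libraries stood in columns 2 to 5 and WT libraries in columns 1 to 6. Column 4 held Q140 female 2 and Q140 males 1, 2 and 4, but of the WT mice only female 3.

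Of the 3 stems with 4 mice, 2 stood to one side of their group means in some clock genes. The 4 female Mh3Q19 mice, of WT, Msh3+/-, Msh3-/- and Q140 genotype, had Per2 residuals of 0.059 to 0.55, all above their group means. The 4 female Mh3Q26 mice, of Msh3+/-, Msh3-/-, Q140 and Q140 x Msh3-/- genotype, had Arntl residuals of 0.048 to 0.37, Per3 of -0.39 to -0.10, Cry2 of -0.17 to -0.071 and Dbp of -0.26 to -0.061. Arntl was thus above and the other 3 below the group mean in every Mh3Q26 mouse. The 4 mice of the remaining stem, Mh3Q22, lay on both sides of 0 in all 10 clock genes, with Per2 residuals of -0.18 to 0.24 and Arntl residuals of -0.13 to 0.034. The 3 Mh3Q29 mice likewise had Per2 residuals of -0.26 to 0.22. These stems were named after their values were seen.

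**Figure D5:**
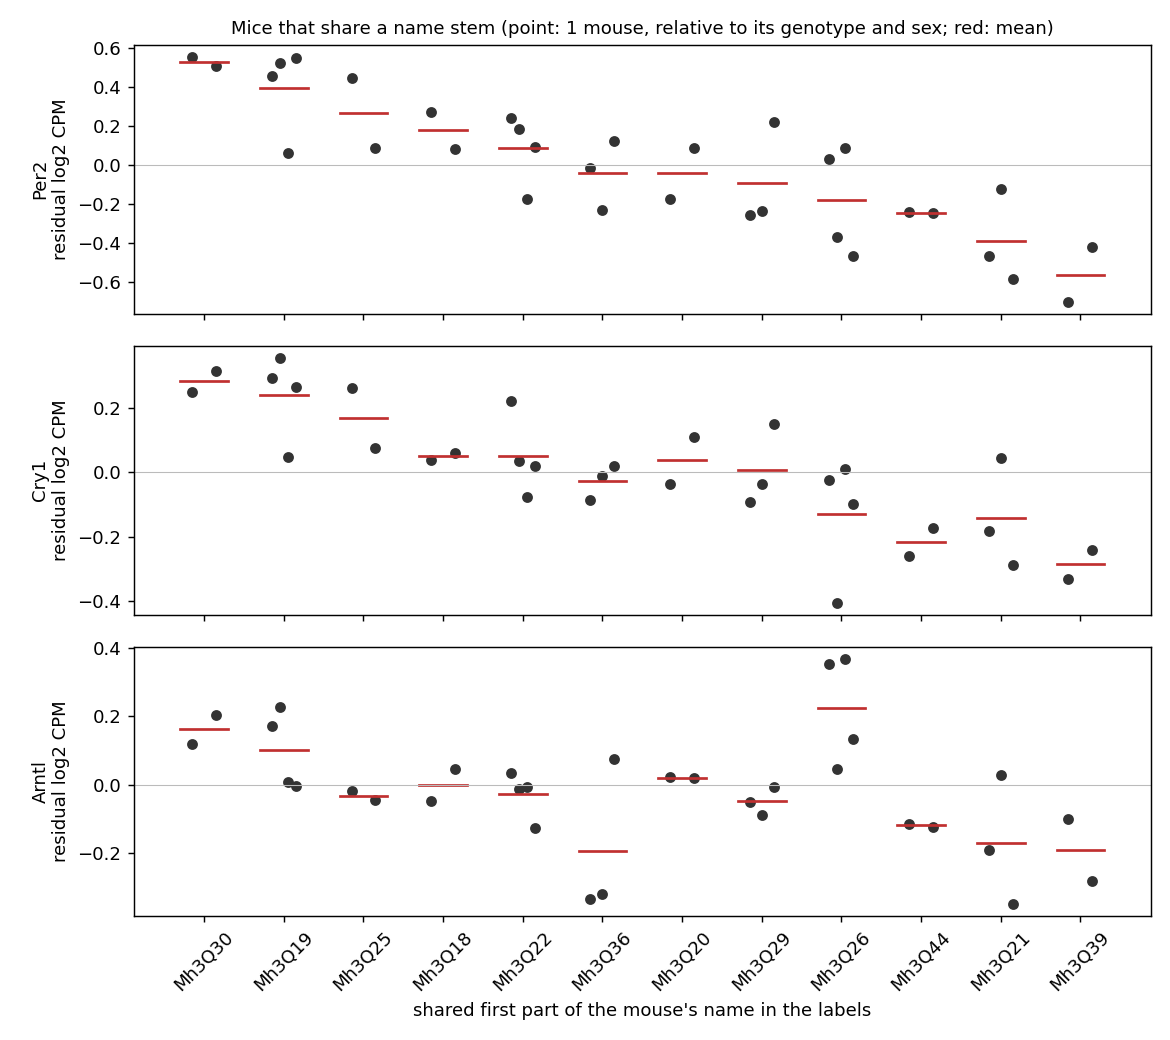
Residual log2 CPM of Per2, Cry1 and Arntl (vertical axes) in mice that share a name stem (horizontal axis, ordered by the mean of Per2). Points are mice and red lines their means. The 2 Mh3Q30 mice lie near 0.53 for Per2 and the 2 Mh3Q39 mice at -0.70 and -0.42.

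Mice of 1 stem are not independent of each other in these genes, so p-values over 48 mice can be too small for the pairs. With the name stem removed in place of sex, an alternative added after the data were seen, 0 of 45 pairs passed after adjustment and 6 had an unadjusted permutation p under 0.05. Per2 with Cry1 was then at r = 0.62 (adjusted p = 0.13), Per2 with Nr1d1 at -0.20 and Per3 with Cry2 at 0.14. That fit draws on the 33 mice in shared stems alone. The genotype differences were refitted the same way. In that fit the Q140 group rests on its mice of stems Mh3Q19, Mh3Q25 and Mh3Q26 alone. Only Mh3Q26 held both a Q140 and a Q140 x Msh3-/- mouse, so calls gained or lost in this fit rest on few mice. In Q140 minus WT, Npas2, Nr1d1, Dbp and Per3 still passed, and Per2 passed too, at -0.42 (adjusted p = 0.046, edgeR). In Q140 x Msh3-/- minus Q140, Nr1d1 fell short at 0.20 (adjusted p = 0.0871, edgeR) and Cry2 at 0.15 (adjusted p = 0.105, edgeR), while Per2 passed at 0.78 (adjusted p = 0.00681, edgeR). The interactions of Nr1d1 (0.21, adjusted p = 0.238, edgeR) and Dbp (0.29, adjusted p = 0.112, edgeR) were lost and that of Npas2 was kept.

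An index over 8 of the genes summarises where each mouse stood. It is the mean residual of Dbp, Per2, Per3, Nr1d1 and Nr1d2 minus that of Arntl, Clock and Npas2, each in units of its own SD, with Cry1 and Cry2 left out because their usual phase lies between. It ran from -1.67 to 1.16 with an SD of 0.72. With the name stem in place of sex its SD was 0.34 and its r with the index as given here 0.20 over the 48 mice. Mice alone in their stem have no residual in that fit, so part of the lower SD and r was fixed in advance. The values that follow hold only for residuals within genotype and sex. The 4 Mh3Q26 mice lay between -1.67 and -0.76. The spread was narrowest in Q140 x Msh3+/- mice (SD 0.29, n = 8) and widest in WT mice (SD 0.94, n = 8), and was 0.85 in females and 0.57 in males. The index mixes members of opposite sign, since Per2 and Nr1d1 both enter its first arm with r = -0.63 between them.

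The genes outside the 10 that lay closest to the index were the clock genes Ciart (r = 0.79) and Tef (r = 0.78), followed by Sh3kbp1 (-0.71), Grik5 (0.70), Mest (-0.69), Camkk1 (0.67), Fam117a (0.67), Rap1a (-0.65), Narf (0.65), Abl1 (0.65), Baz1a (-0.65) and Fancg (0.64), over 48 mice. An absolute r of at least 0.5 with the index was reached by 1.77% of the 13823 genes outside the 10. Of the 18 pathway genes, Bhlhe41 (0.51) was the only other with an absolute r of at least 0.5. The closest gene to each clock gene outside the 10 was Sik2 for Arntl (0.84), Myo9a for Clock (0.79), Ryr1 for Npas2 (0.64), Camk1g for Per2 (0.88), Tef for Per3 (0.79), Ncoa5 for Cry1 (0.84), Sema6d for Cry2 (-0.80), Gpt2 for Nr1d1 (-0.78), Tmod2 for Nr1d2 (0.75) and Phyhip for Dbp (0.83). These values come from the same mice and libraries and carry no test.

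Genes that respond to hormones, temperature or neuronal activity were set beside the clock genes in the same mice, as descriptions. Of 10 glucocorticoid-responsive genes, 6 had an absolute r of at least 0.5 with Nr1d1 (median of the 10 -0.55), with Tsc22d3 at -0.67, and 3 had one with Per2, namely Zbtb16 (0.76), Plin4 (0.68) and Tsc22d3 (0.60). With Nr1d2, 4 of the 10 reached it, and their median was positive at 0.38. With Per3 and with Cry1, 3 of the 10 reached it each. Of all 13832 other genes, 2.51% reached it with Nr1d1, 6.45% with Per2, 5.29% with Arntl and 2.37% with Dbp. The shares were 2.12% with Nr1d2, 6.75% with Per3 and 5.49% with Cry1. Of 8 genes listed as cold- and heat-inducible, 4 reached it with Per2, 4 with Cry1 and 4 with Arntl. The chaperone gene Hspa5 stood at 0.77 with Per2 and 0.76 with Arntl, and the cold-inducible Cirbp at -0.62 with Arntl. The heat shock genes Hspa1a and Hspa1b did not reach it, at 0.40 and 0.46 with Per2 and 0.23 and 0.27 with Arntl. Of 10 immediate early genes, which mark recent neuronal activity, none reached it with Per2, Arntl, Nr1d1 or the index, and 1 reached it with Dbp, Egr1 at -0.52. None of the 3 lists had a member that reached it with the index. The largest were Plin4 (0.44) and Mt2 (0.43) for the glucocorticoid list, Rbm3 (0.37) and Cirbp (0.36) for the temperature list, and Egr1 (-0.34) and Ier2 (-0.27) for the immediate early list. The part of these responses in the co-variation of the clock genes was not tested.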

How the data were processed

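Striatal RNA of 48 mice was sequenced from stranded libraries, per the labels' protocols. The authors deposited gene counts and FPKM values (fragments scaled by a length for each gene and by library total). They were made with STAR 2.7.5c, SAMtools 1.10 and HTSeq 0.12.3 on GRCm38 per the submitters' processing notes. Neither counting options nor the annotation release were found in the sources used. Deposited counts were fitted with edgeR 4.0.16 (R 4.3.3), TMM factors, a low-count filter (minimum count 10), and genotype and sex as terms, over all 19714 genes that passed. FPKM served only to order genes by level. Groups came from the titles. Alternatives tried were DESeq2 1.42.0, library totals, no filter, the replicate number as a block, no sex term and the plate column. Others were the name stem, 5 libraries of high cortical marker level left out and each library left out. A further one kept only libraries whose names begin with Mh3Q. It dropped WT females 3 and 4, Q140 female 4 and Q140 male 4, and no library of another genotype. Co-variation used log2 CPM (prior count 2) minus genotype and sex means, in Python 3.11.15. One gene's residuals were shuffled 100000 times among mice of a genotype and again freed of genotype and sex means. This second step kept the rate of false calls near its nominal value when tested on simulated data. The simulated mice were independent of each other, so that rate does not cover mice alike within a name stem. An earlier version of the test without that second step called too many pairs and was replaced. Relations within a genotype used its 8 mice without removing sex. All 10 clock genes are named, pathway genes past the test or with an absolute r to the index of at least 0.5, the 12 genes closest to the index, the closest gene to each clock gene, and the genes of the response lists with the largest r. Overlapping genes, Msh3 and genes named for an r to a single clock gene were named after their values were seen. The members and lists were chosen with earlier results of these data known. Depth of 38.9 M to 60.9 M counts limits the clock genes little, since the lowest stood at 18.2 CPM. The result of 1 marker gene is not reported here.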

Additional observations from a re-analysis of the deposited data

Results flagged for a closer look

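In 60 groups of 8 mice (10 clock genes in 6 genotypes), 3 held a mouse set apart from the others by more than 0.526 of the group's range; chance gives such a gap in about 1 in 20 groups. The highest Per2 mouse in Msh3+/- (female 1) read 138 CPM against 103 for the next, a gap of 0.532 of the range. The lowest Cry1 mouse in Q140 x Msh3+/- (female 4) read 18.2 CPM against 23.5, a gap of 0.529. The lowest Nr1d1 mouse in Msh3-/- (male 3) read 132 CPM against 160.1, a gap of 0.596.

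The Q140 difference changed with loss of both Msh3 alleles for Npas2 (0.47 on the log2 scale), Nr1d1 (0.45) and Dbp (0.33), by the interaction tests given above with edgeR. Each kept an adjusted p under 0.05 whichever 1 library was left out. With the name stem in place of sex, that of Npas2 was kept and those of Nr1d1 (0.21, adjusted p = 0.238) and Dbp (0.29, adjusted p = 0.112) were lost, and without the 5 libraries of high cortical marker level that of Dbp was lost (0.27, adjusted p = 0.101).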

How the results depend on the processing

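The counts of clock genes past the test in Q140 minus WT (4), Q140 x Msh3-/- minus Q140 (4), Q140 x Msh3+/- minus Msh3+/- (3) and Q140 x Msh3-/- minus Msh3-/- (3) stayed within 1.5 times under every alternative run. In Q140 x Msh3+/- minus Q140 the count of 0 became 1 with library totals, 1 with the replicate block, 3 with the plate column, 2 with DESeq2 and 1 without the 5 libraries of high cortical marker level. The interaction with loss of both Msh3 alleles fell from 3 genes to 1 with the name stem in place of sex, and the sex difference from 2 to 1 without the filter, 1 with the plate column, 1 without those 5 libraries and 1 with only the libraries whose names begin with Mh3Q. Leaving out each library in turn gave 4 to 6 in Q140 minus WT, 0 to 2 in Q140 x Msh3+/- minus Q140 and 1 to 2 for sex, with no change in the other comparisons. Of the pairs, 14 became 8 with Spearman's rho, 0 with the name stem in place of sex, 9 without those 5 libraries and 7 without the 2 mice farthest from the median; Cry1 with Cry2 reversed to -0.19 under the name stem, where it did not pass. The SD of the index fell from 0.72 to 0.34 under the name stem, in part by construction as given above. The cause was not tested, except that the name stem and the left-out libraries leave fewer mice to compare. Whether the replicate numbers of the titles pair the mice was not tested. Of 120 pairs of mice with the same sex and number, 24 correlated above 0.1 over all genes. Their median was 0.0015, and that of pairs with different numbers was -0.00041. Among mice of the same sex in other genotypes, 20 of 48 mice were closest to one with their own number. With 4 numbers per sex in each genotype, 1 in 4 would be met by chance if mice were independent. The 31 pairs of mice of 1 name stem and different genotypes had a median of 0.080. The replicate block changed no other count.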
